A study of Mus musculus with 6 samples.

Results

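Matrix-binding integrins of keratinocytes are described here through the 10 genes *Itga2*, *Itga3*, *Itga5*, *Itga9*, *Itgav*, *Itgb1*, *Itgb3*, *Itgb5*, *Itgb6* and *Itgb8*, taken by symbol from the 24982 genes listed in each of 6 RNA-seq libraries. The libraries came from cultured C57BL/6 mouse keratinocytes of neonatal skin, with 3 libraries from KSFM-Ca2+ cells and 3 from DKSFM cells, called the lines below. KSFM-Ca2+ cells were derived and kept without feeder cells in a low calcium serum-free medium (KSFM-Ca2+). The DKSFM cells are descendants of the KSFM-Ca2+ cells that were moved to a defined serum-free medium (DKSFM) and survived after most cells had been lost. Medium, calcium and selection of the survivors therefore cannot be told apart. The labels do not say whether replicates came from separate cultures or separate isolations, so the p-values measure only the spread between these libraries, which may be technical.

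Integrins are membrane receptors made of an alpha and a beta chain, which bind extracellular matrix outside the cell and connect it through adaptor proteins to actin inside. The chains pair in the endoplasmic reticulum, and an unpaired chain does not reach the surface. In basal keratinocytes β1 pairs with α2 and α3 to hold collagen and laminin, while β1 with α5 or α9 and the αv pairs bind fibronectin, tenascin, vitronectin and latent TGF-beta and matter most in wounds and in culture.

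The value of a gene is its mean read coverage per base, a level per length, divided here by a factor for the depth and makeup of its library (normalized coverage). Before scaling, all genes together summed to 1601676, 1238411 and 1057750 for the KSFM-Ca2+ libraries and to 1174348, 1239438 and 1170675 for the DKSFM libraries. Keratinocyte markers matched the label, since all 6 on the list were detected and *Krt14*, a keratin of basal cells, was the most covered of them in both lines. Its normalized coverage was 12088 ± 227 in KSFM-Ca2+ cells and 30001 ± 1531 in DKSFM cells (SD, n = 3 each, as in all values below).

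Of the 10 genes, 8 reached 0.5 or more in 3 or more libraries and were tested with limma, a linear model fitted to all 12450 genes that passed this filter, with Benjamini-Hochberg adjusted p-values. In DKSFM cells 5 were lower at an adjusted p under 0.01, against 37.0% of all tested genes, 2 were higher, against 35.5%, and 1 was not called, where 72.5% of all tested genes were called in either direction. With a change of at least 2-fold as well, *Itga2*, *Itga3*, *Itgb1* and *Itgb6* were lower, against 10.5% of all tested genes, and *Itgb8* was higher, against 13.3%. The libraries of the lines did not overlap for 7 of the 8, against 83.2% of tested genes, so separation of the lines is common in these data. *Itgb8* passed the filter only through the DKSFM libraries and so had to differ. The median log2 fold change of the 8 was -0.92, or -1.44 over the 7 without *Itgb8*, while that of all tested genes was 0.00015.

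**Figure D1:**
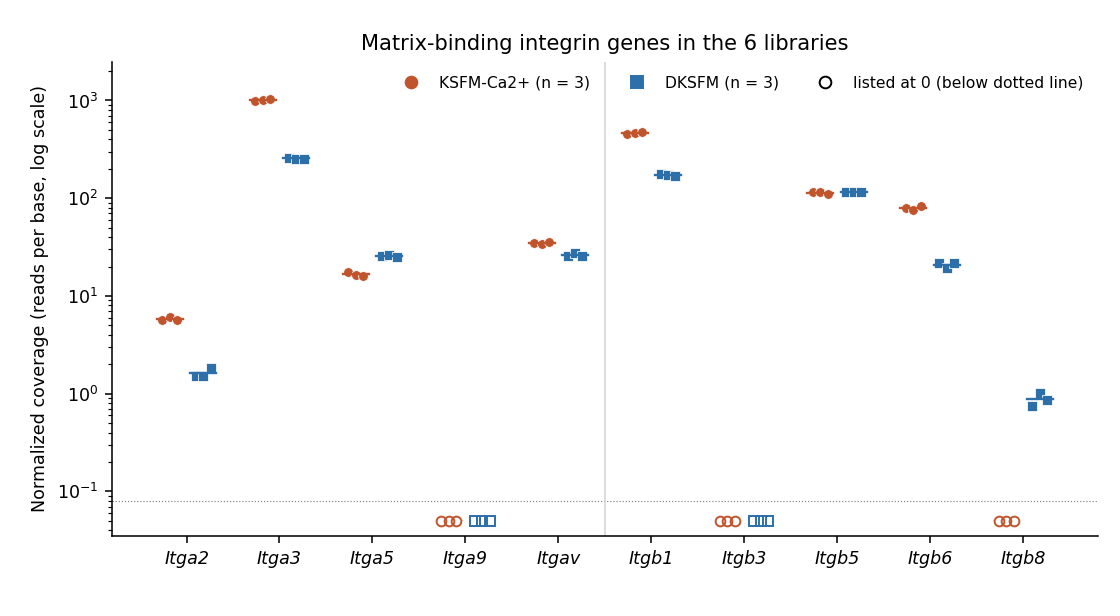
Normalized coverage per base of each member gene on a log axis, with a point for every library and a short line at the mean of each line; open symbols under the dotted line are libraries in which the gene was listed at 0. *Itga3* and *Itgb1* lie highest in both lines, and *Itga2*, *Itga3*, *Itgb1* and *Itgb6* lie lower in DKSFM libraries.

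Among the 5 alpha members, *Itga3* was by far the most covered in both lines, and it and *Itga2* fell past 2-fold. *Itga3* encodes α3, the laminin-binding chain of basal keratinocytes (chr11:95044474-95076801, minus strand, GRCm38). Its normalized coverage was 978, 1011 and 1042 in the KSFM-Ca2+ libraries and 259, 254 and 253 in the DKSFM libraries. All DKSFM libraries lay far under the lowest KSFM-Ca2+ library, and the gap was many times the spread within either line. The means of 1010.5 ± 32.0 and 255 ± 3.05 gave a log2 fold change of -1.98 (SE 0.03, limma adjusted p = 1.13e-09), or 3.96-fold less on the log2(coverage + 0.1) scale on which all fold changes are given. Only 4.04% of tested genes had a log2 fold change at or under this value.

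*Itga2*, for the collagen-binding α2 chain (chr13:114833081-114932100, minus strand), also fell, from a far lower level. It stood at 5.69, 6.09 and 5.72 in KSFM-Ca2+ libraries and at 1.50, 1.51 and 1.82 in DKSFM libraries, with no overlap. The log2 fold change was -1.80 (SE 0.11, limma adjusted p = 1.51e-06), and its 95% interval of -2.06 to -1.54 holds the estimate of *Itga3*, so the order of the falls is not resolved. It was the least covered of the 4 detected alpha members in both lines, and collagen IV is the coating used at isolation and at subculture.

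*Itga5*, for the α5 chain of the main fibronectin receptor (chr15:103344286-103366763, minus strand), was the alpha member that rose. Its normalized coverage was 17.7, 16.5 and 16.0 in KSFM-Ca2+ libraries and 25.7, 25.9 and 25.0 in DKSFM libraries. The lines did not overlap, and the log2 fold change of 0.61 (SE 0.05, limma adjusted p = 1.16e-05) stayed under 2-fold. A microRNA gene on the same strand, *Mir6963*, lies within *Itga5*, and its reads could not be told from those of the host gene.

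*Itgav* encodes αv, the alpha partner that β3, β5, β6, β8 and also β1 can share (chr2:83724397-83806916, plus strand). It was at 35.2, 34.1 and 35.7 in KSFM-Ca2+ libraries and at 25.7, 27.4 and 25.9 in DKSFM libraries. The fall was small but larger than the spread, with a log2 fold change of -0.41 (SE 0.04, limma adjusted p = 4.35e-05). In DKSFM cells the values of *Itgav* and *Itga5* overlapped, so their order there is not resolved, whereas in KSFM-Ca2+ cells every *Itgav* value was above every *Itga5* value. *Itga9*, for the tenascin-binding α9 chain (chr9:118606690-118901003, plus strand), was listed at 0 in all 6 libraries, where a step of 0.1 corresponds to about 8.26 reads over its longest transcript.

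Among the 5 beta members, *Itgb1* was the most covered in both lines. *Itgb1* encodes β1, the partner of α2, α3, α5 and α9 (chr8:128685654-128733200, plus strand). Its normalized coverage was 459, 463 and 471 in KSFM-Ca2+ libraries and 175, 172 and 167 in DKSFM libraries. No library of either line came near the other line. The means of 464 ± 6.18 and 171 ± 4.10 gave a log2 fold change of -1.44 (SE 0.03, limma adjusted p = 3.56e-09), or 2.71-fold less. The 95% interval of -1.50 to -1.37 lies apart from that of *Itga3*, -2.05 to -1.91. Genes around *Itgb1* were also lower, with a median log2 fold change of -0.57 over the 96 tested genes within 10 Mb. After each library was centred on those neighbours, *Itgb1* was at -0.88 (limma adjusted p = 3.78e-08), which is a change of less than 2-fold. What lowered the neighbourhood was not tested.

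*Itgb6* encodes β6, an epithelial chain that pairs with αv to bind fibronectin and to activate latent TGF-beta (chr2:60598292-60722643, minus strand). It was at 79.2, 74.9 and 84.2 in KSFM-Ca2+ libraries and at 21.5, 19.4 and 21.9 in DKSFM libraries. The lines were clearly apart, with a log2 fold change of -1.92 (SE 0.06, limma adjusted p = 4.38e-08), or 3.78-fold less. Its alpha partner *Itgav*, by the values above, had the smaller change, and the difference between the genes was not tested.

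*Itgb5*, whose β5 chain pairs with αv as a vitronectin receptor (chr16:33829665-33949338, plus strand), was the tested member without a call. It was at 115.7, 116.9 and 110.3 in KSFM-Ca2+ libraries and at 115.1, 115.5 and 116.3 in DKSFM libraries. The libraries of the lines were interleaved. The log2 fold change was 0.02 (95% interval -0.06 to 0.09, limma adjusted p = 0.63), so any change was small in either direction.

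*Itgb8*, for the β8 chain that also pairs with αv and activates latent TGF-beta (chr12:119158022-119238802, minus strand), was listed at 0 in every KSFM-Ca2+ library. In DKSFM libraries its normalized coverage was 0.750, 1.01 and 0.856, and a listed step of 0.1 corresponds to about 9.89 reads over its longest transcript. It was called higher (limma adjusted p = 1.14e-05), and no fold is given against a line at 0. *Itgb3*, for the β3 chain of the αvβ3 vitronectin receptor (chr11:104608000-104670476, plus strand), was listed at 0 in all 6 libraries, with a step worth about 6.8 reads. Of the partners of αv that are not β1, β5 and β6 were thus detected in both lines and β8 in DKSFM cells alone, at a level close to the filter.

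**Figure D2:**
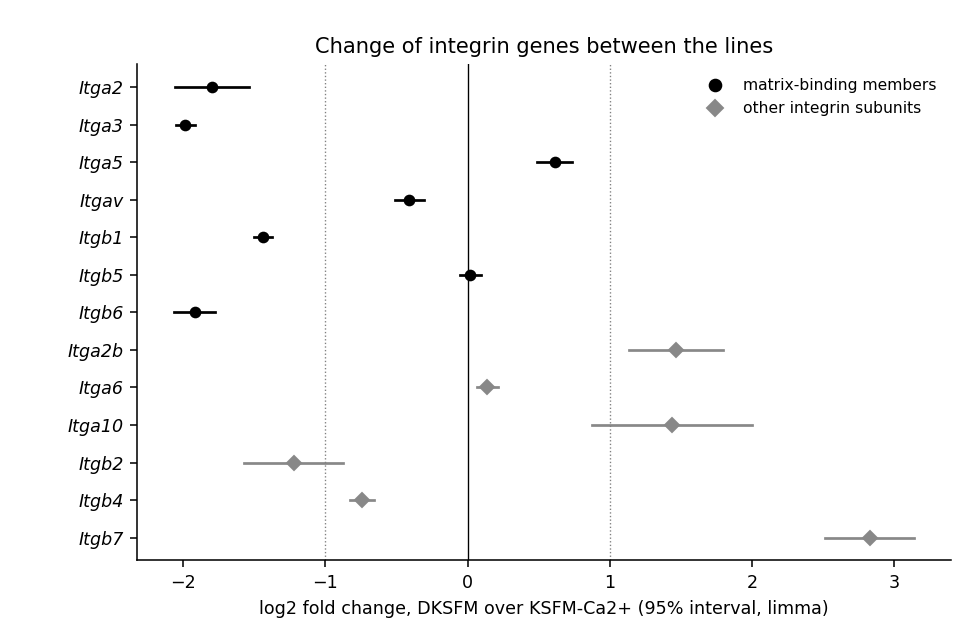
Log2 fold change of DKSFM over KSFM-Ca2+ libraries with 95% intervals from limma for the tested members (black circles) and the other tested integrin subunits (grey diamonds); dotted lines mark 2-fold, and *Itgb8* is left out because a line at 0 gives no fold. *Itga2*, *Itga3*, *Itgb1* and *Itgb6* lie past 2-fold on the lower side, and the interval of *Itgb5* spans 0.

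The genes *Itga3*, *Itgb1* and *Itgb6* were well covered and fell past 2-fold together, and *Itgb5* did not, so their promoter windows are shown side by side. RefSeq promoter sequences on GRCm38.p6, which run from 250 bases before to 50 bases after the start, were at hand for 9 of the 10 genes, and the window at the outer start was taken for *Itga3* and *Itgb6*, which have 2 each. The windows are chr11:95076665-95076964 (minus strand) for *Itga3*, chr8:128685404-128685703 (plus) for *Itgb1*, chr2:60722554-60722853 (minus) for *Itgb6* and chr16:33829415-33829714 (plus) for *Itgb5*. Capitals mark matches on either strand to the AP-1 motif TGANTCA, the GC box motif GGGCGG, the TEAD motif GGAATG, the ETS motif CCGGAAG or the TATA box motif TATAAA, and no marked matches overlap.
Itga3: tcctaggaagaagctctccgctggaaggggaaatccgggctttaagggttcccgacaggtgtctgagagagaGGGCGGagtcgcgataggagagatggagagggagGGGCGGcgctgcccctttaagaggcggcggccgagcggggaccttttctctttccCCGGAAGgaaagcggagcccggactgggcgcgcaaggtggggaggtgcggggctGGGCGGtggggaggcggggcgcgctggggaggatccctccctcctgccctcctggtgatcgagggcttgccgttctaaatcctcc
Itgb1: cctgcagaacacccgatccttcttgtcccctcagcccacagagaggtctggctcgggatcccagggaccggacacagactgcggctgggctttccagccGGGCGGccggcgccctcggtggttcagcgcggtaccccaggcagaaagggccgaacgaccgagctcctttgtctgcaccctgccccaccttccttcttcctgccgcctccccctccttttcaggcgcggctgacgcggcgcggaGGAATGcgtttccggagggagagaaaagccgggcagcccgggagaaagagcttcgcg
Itgb6: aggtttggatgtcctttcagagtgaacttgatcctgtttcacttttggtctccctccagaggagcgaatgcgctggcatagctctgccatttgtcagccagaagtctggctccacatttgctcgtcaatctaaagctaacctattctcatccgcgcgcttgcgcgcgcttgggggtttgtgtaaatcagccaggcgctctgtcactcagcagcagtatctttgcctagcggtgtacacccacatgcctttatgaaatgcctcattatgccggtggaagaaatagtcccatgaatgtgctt
Itgb5: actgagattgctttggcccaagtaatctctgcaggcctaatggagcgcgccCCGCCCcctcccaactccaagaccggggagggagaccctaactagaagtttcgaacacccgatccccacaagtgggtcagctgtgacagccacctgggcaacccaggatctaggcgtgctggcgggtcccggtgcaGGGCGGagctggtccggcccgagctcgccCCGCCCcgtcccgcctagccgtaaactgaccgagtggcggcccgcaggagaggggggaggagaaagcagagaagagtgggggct
The *Itga3* window holds 3 GC boxes and 1 ETS match, that of *Itgb1* holds 1 GC box and 1 TEAD match, that of *Itgb5* holds 3 GC boxes, and that of *Itgb6* holds none of the 5 motifs. Of all 32851 promoter windows, 35.7% hold the GC box, 14.7% the TEAD motif, 13.6% the TATA box, 8.86% the ETS motif and 7.81% the AP-1 motif. The GC content was 66.7% for *Itga3*, 67.3% for *Itgb1* and 65.7% for *Itgb5*, but 50.3% for *Itgb6*, beside a median of 52.7% over all windows. No motif of the 5 is in all the windows shown, and the *Itga3* and *Itgb5* windows hold 3 GC boxes each. The second *Itga3* window, not shown, holds 1 GC box and 1 AP-1 match. A match describes letters only and not a bound site, and a link between motifs and the changes was not tested.

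Coverage is per base, so the chains were set side by side within each library. The transcripts or bases over which each gene was averaged are not given in the sources used here, and whether levels of different genes are on 1 scale was not tested, so all orders of genes by level, shares and ratios rest on that assumption. The share of *Itgb1* in the summed coverage of the beta members was 70.2%, 70.7% and 70.8% in KSFM-Ca2+ libraries and 56.0%, 55.8% and 54.5% in DKSFM libraries. The share of *Itgb5* was 17.7%, 17.9% and 16.6% in KSFM-Ca2+ libraries and 36.8%, 37.6% and 38.0% in DKSFM libraries. The share of *Itgb5* thus rose with no overlap although its own level was not called, while *Itgb1* and *Itgb6* in the same sum were lower. The share of *Itgb6* was 12.1% ± 0.612 and 6.79% ± 0.444. Among the beta members other than *Itgb1*, *Itgb5* made up 59.0% ± 2.15 in KSFM-Ca2+ cells and 84.1% ± 0.760 in DKSFM cells. *Itgb6* made up 41.0% ± 2.15 and 15.2% ± 0.850 of the same sum, with no overlap between the lines in either share.

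The alpha shares differed as well. *Itga3* made up 94.6% ± 0.224 of the summed alpha members in KSFM-Ca2+ cells and 82.7% ± 0.395 in DKSFM cells. *Itga5* went from 1.57% ± 0.129 to 8.28% ± 0.104, and *Itgav* from 3.28% ± 0.0999 to 8.54% ± 0.320. The fibronectin-binding chains thus took a larger part of a smaller sum. *Itga2* held 0.546% ± 0.0254 and 0.522% ± 0.0633, values that overlapped between the lines. The summed alpha members were 2.30 ± 0.0378 times *Itgb1* in KSFM-Ca2+ cells and 1.80 ± 0.0261 times in DKSFM cells. This ratio holds for the listed members only. The sum leaves out *Itga6*, an alpha gene at 261 ± 6.28 in KSFM-Ca2+ cells and 287 ± 8.36 in DKSFM cells. A ratio that counts it could differ in direction and was not tested. The exact two-sided permutation test gave p = 0.1 for each share and ratio that could be tested except that of *Itga2*, at p = 0.6, and 0.1 is the smallest p that 3 against 3 libraries allow. After Benjamini-Hochberg adjustment over 12 such tests those exact p-values were 0.109, and 0.6 for *Itga2*. The tests are not separate results, because shares of the same sum depend on each other, and the shares of *Itgb8* had to differ.

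**Figure D3:**
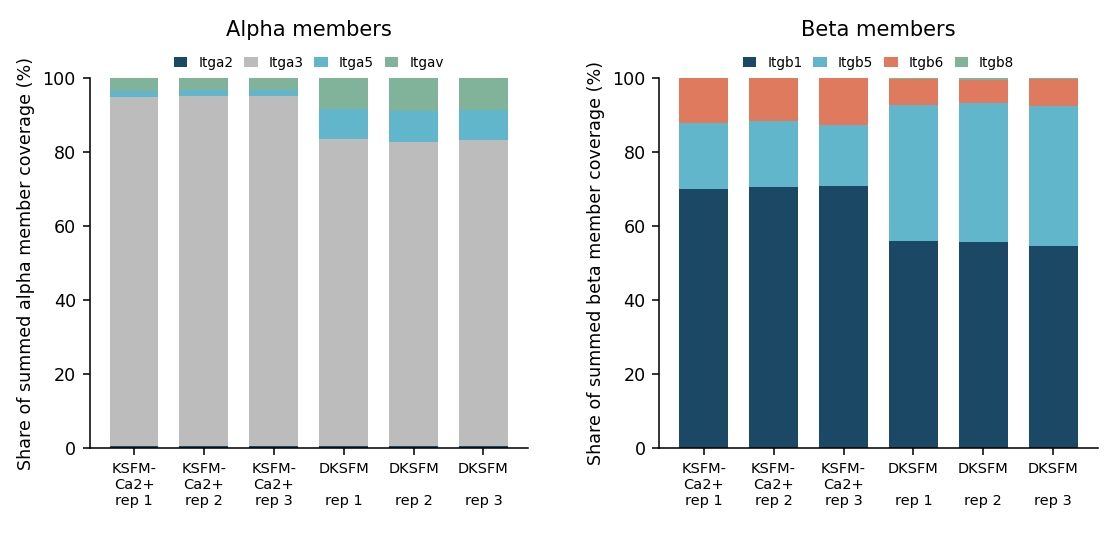
Share in percent of each gene in the summed coverage of the alpha members (left) and of the beta members (right), 1 stacked bar for each library. *Itga3* takes 94.6% of the alpha sum in KSFM-Ca2+ libraries and 82.7% in DKSFM libraries on average, and *Itgb5* takes 17.4% and 37.5% of the beta sum.

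The position of each member was set beside its neighbours, because RNA of whole chromosome regions can differ between cultured lines. The median log2 fold change of tested genes within 10 Mb was -0.17 around *Itga3*, -0.15 around *Itga2*, -0.12 around *Itgb6*, -0.05 around *Itga5*, 0.08 around *Itgb5* and 0.12 around *Itgav*. *Itgb1* was the member with a neighbourhood that differed most from 0. Centred on their neighbours, *Itga3*, *Itgb6* and *Itga2* were at -1.83, -1.80 and -1.62, each still past 2-fold, and *Itga5* was at 0.68. *Itgb5* was at -0.06 (limma adjusted p = 0.128) and again not called. File names of KSFM-Ca2+ replicate 3 and of all DKSFM replicates hold the word combined, which the sources used here do not explain. Within those 4 libraries the log2 fold changes were -2.03 for *Itga3*, -1.46 for *Itgb1*, -2.00 for *Itgb6* and 0.07 for *Itgb5*.

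**Figure D4:**
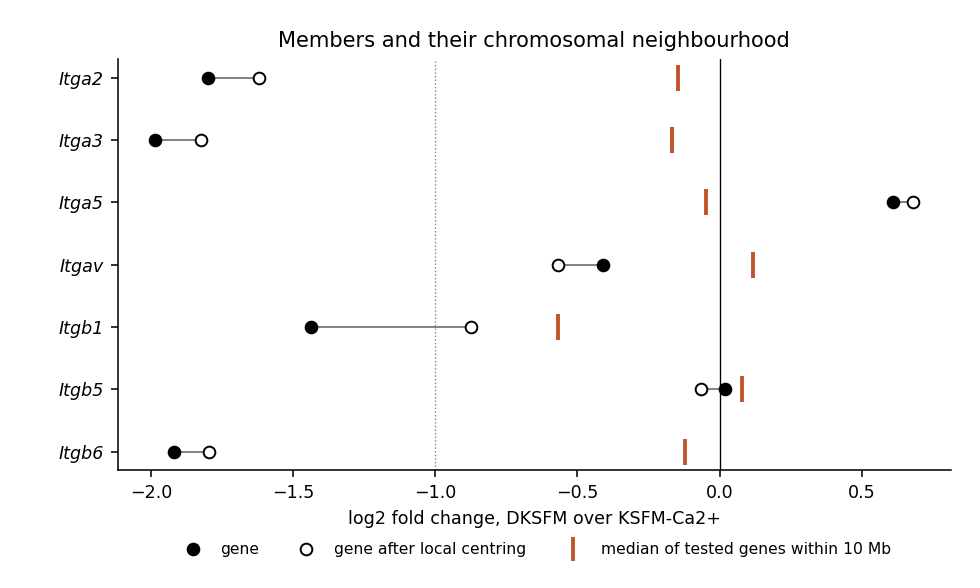
Log2 fold change of each tested member (filled circles), the same after centring each library on genes within 10 Mb (open circles) and the median of those genes (vertical bars); *Itgb8* is left out. *Itgb1* moves from -1.44 to -0.88, across the dotted 2-fold line, and no other member crosses it.

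Other integrin subunits gave the members their context. Of 17 such genes 6 were tested. In DKSFM cells 4 were higher, against 35.5% of all tested genes, and 2 were lower, against 37.0%. The median log2 fold change was 0.79, or 0.14 over the 5 without *Itga10*, which passed the filter only through DKSFM libraries. *Itga6* and *Itgb4*, which form the laminin receptor of hemidesmosomes, were the most covered. *Itgb4* was at 329, 326 and 317 in KSFM-Ca2+ libraries and at 198, 184 and 199 in DKSFM libraries, with a log2 fold change of -0.74 (SE 0.04, limma adjusted p = 4.55e-07). *Itga6* was at 266, 262 and 254 against 285, 281 and 297, and its log2 fold change of 0.14 (SE 0.03, limma adjusted p = 0.00389) was not called under 8 of 18 alternatives, without KSFM-Ca2+ replicate 2 (adjusted p = 0.0129) or 3 (0.013) and without DKSFM replicate 1 (0.0113) or 3 (0.0149) among them. In KSFM-Ca2+ cells *Itga3* was thus the most covered integrin gene, and in DKSFM cells *Itga6* (287 ± 8.36) was above *Itga3* (255 ± 3.05) and *Itgb4* (194 ± 8.65) above *Itgb1* (171 ± 4.10) in every library.

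Subunits known from blood cells and cartilage were low. *Itgb7*, the partner of α4 and αE on lymphocytes, rose from 0.943 ± 0.140 to 7.27 ± 0.547 (log2 fold change 2.83, limma adjusted p = 3.18e-07). Its partner genes were near or at 0, with *Itga4* at most 0.107 and *Itgae* listed at 0 in all libraries. *Itga2b*, the platelet partner of β3, rose from 1.22 ± 0.157 to 3.53 ± 0.383 (log2 fold change 1.46) although *Itgb3* was listed at 0. *Itga10*, for a collagen-binding partner of β1, went from 0.333 ± 0.115 to 1.05 ± 0.0760 (log2 fold change 1.44) and had neighbours with a median of 0.52. With a pseudocount of 1 in place of 0.1 the log2 fold changes were 2.09 for *Itgb7*, 1.03 for *Itga2b* and 0.62 for *Itga10*. *Itgb2*, the leukocyte beta chain, fell from 4.83 ± 0.956 to 1.99 ± 0.153 (log2 fold change -1.22, or -0.95 with a pseudocount of 1, which is under 2-fold). *Itga11*, *Itgad*, *Itgae*, *Itgax* and *Itgb2l* were listed at 0 throughout, and *Itga1*, *Itga4*, *Itga7*, *Itga8*, *Itgal* and *Itgam* were too low to test.

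Genes for ligands of these receptors moved in both directions. Of 25 ligand genes 17 were tested, 8 were higher, against 35.5% of all tested genes, and 9 lower, against 37.0%. The median log2 fold change was -0.36. *Lama3* and *Lamb3*, for chains of a laminin that α3β1 binds in epidermis, were lower, with *Lama3* at 365 ± 4.93 and 116 ± 4.09 (log2 fold change -1.66) and *Lamb3*, the most covered ligand gene, at 611 ± 15.3 and 299.7 ± 9.77 (-1.03). Genes near *Lamb3* had a median of -0.64, and after centring on them it was at -0.41. *Lamb1*, a chain of other laminins, had a log2 fold change of -1.36. Also lower were *Thbs1*, *Ctgf* and *Cyr61*, at log2 fold changes of -0.85, -0.85 and -0.80. Genes for other ligands were among those that rose. *Fn1*, for fibronectin, went from 7.62 ± 0.534 to 33.1 ± 2.35 (log2 fold change 2.11, limma adjusted p = 6.55e-08), and *Col4a1*, for a collagen IV chain, had a log2 fold change of 1.63. *Postn*, for periostin, a ligand of αv pairs, was at 0.404 ± 0.287 and 19.4 ± 2.61 (log2 fold change 5.46, or 3.88 with a pseudocount of 1). *Postn* passed the filter only with the DKSFM libraries, since it reached 0.5 in KSFM-Ca2+ replicate 1 (0.692) but in neither other library of that line. *Vcam1*, among the lower ligand genes, passed it only through the KSFM-Ca2+ libraries and so had to differ. Also higher were *Spp1*, *Col4a2*, *Tnc*, *Mfge8* and *Lama5*, at log2 fold changes of 1.59, 1.07, 0.82, 0.61 and 0.33. *Itga5* and *Fn1*, for a receptor chain and its ligand, were thus both higher in DKSFM cells. *Itgb1*, for the partner of α5, and *Itgav* and *Itgb6*, for another fibronectin-binding pair, were lower by the values above. *Vtn*, for vitronectin, the ligand of αvβ5, was listed at 0 in all libraries, as were *Col1a1*, *Col1a2*, *Fbn1*, *Nid1*, *Edil3* and *Svep1*.

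Latent TGF-beta is the cargo that αvβ6 and αvβ8 open. Of 9 genes 5 were tested, with 2 higher, against 35.5% of all tested genes, and 2 lower, against 37.0%. Their median was 0.17, or -0.10 over the 4 without *Tgfb2*. Of the 2 higher genes *Tgfb2*, at 0.154, 0.0998 and 0 in KSFM-Ca2+ libraries and 0.536, 0.706 and 0.749 in DKSFM libraries, passed the filter only through the DKSFM libraries and so had to differ. *Tgfb1* was at 60.0, 60.4 and 60.5 in KSFM-Ca2+ libraries and at 23.4, 20.3 and 25.0 in DKSFM libraries (log2 fold change -1.40, limma adjusted p = 5.23e-07), so ligand and *Itgb6* were both lower. *Ltbp1*, which anchors the latent complex to matrix, was the most covered of the list and rose from 75.0 ± 2.07 to 179.8 ± 5.29 (log2 fold change 1.26). *Tgfb3* was listed at 0 in all libraries.

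Inside the cell 28 of 29 adaptor genes were tested, and *Parvb* was listed at 0. Of the 28, 8 were higher, against 35.5% of all tested genes, and 15 lower, against 37.0%, with a median log2 fold change of -0.20. *Bcar1*, for a scaffold that signals from adhesions, and *Flna* and *Actn1*, for proteins that tie beta chains to actin, had log2 fold changes of -1.46, -1.40 and -1.30, and *Bcar1* was at -0.94 after centring on its neighbours. *Lims2*, for a partner of integrin-linked kinase, was at 0.138 ± 0.0873 and 15.8 ± 0.687 (log2 fold change 6.12, or 3.89 with a pseudocount of 1), although it passed the filter only through DKSFM libraries and so had to differ. *Kank1*, for a talin-binding protein, was at 1.24 ± 0.122 and 55.4 ± 1.92 (5.38, or 4.66 with that pseudocount), and *Dab2*, for an endocytic adaptor of integrins, at 3.92 ± 0.459 and 45.9 ± 3.38 (3.52). *Actn4*, the most covered adaptor gene, had a log2 fold change of 0.39, but its neighbours had a median of 0.56 and after centring on them it was at -0.16 and not called (limma adjusted p = 0.0111).

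At the surface, all 8 genes for proteins that sit beside integrins were tested. Of these, 4 were higher, against 35.5% of all tested genes, and 2 lower, against 37.0%, with a median log2 fold change of 0.23. *Plaur*, for the urokinase receptor, was at 27.1, 26.6 and 29.2 in KSFM-Ca2+ libraries and at 2.89, 3.53 and 4.17 in DKSFM libraries (log2 fold change -2.95, limma adjusted p = 1.62e-07). *Cd82*, for a tetraspanin found with integrins, rose by a log2 fold change of 1.17. *Cd63*, the most covered of these genes, had a log2 fold change of 0.08 and was not called (limma adjusted p = 0.0234), while after centring on its neighbours it was at -0.21 and called lower (limma adjusted p = 0.000104).

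**Figure D5:**
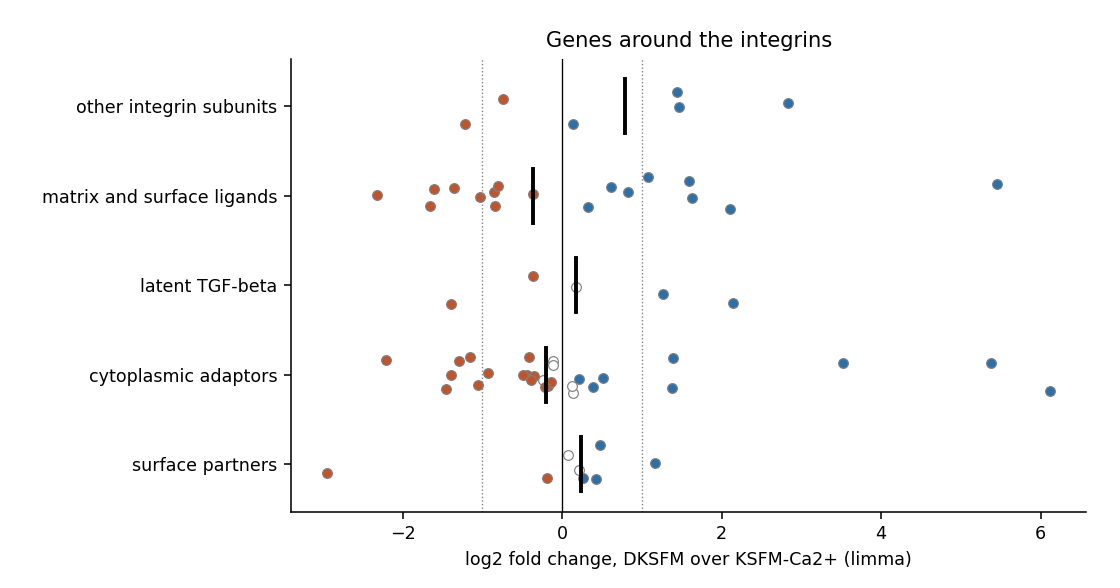
Log2 fold change of every tested gene of 5 lists (points, jittered vertically), coloured where called at an adjusted p under 0.01 and white where not; black bars are list medians and dotted lines mark 2-fold. Each list has genes on both sides of 0, with a median of -0.36 for ligands and of 0.79 for other integrin subunits, the latter 0.14 without *Itga10*.

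Markers of other skin cells were checked, since these cells use other integrins. Of 8 fibroblast markers 7 were listed at 0 in all libraries, *Col1a1*, *Col1a2* and *Col3a1* among them, and *Pdgfra* alone gave sums of 1.15, 0.898 and 1.31 in KSFM-Ca2+ libraries and 2.36, 2.12 and 2.25 in DKSFM libraries. Melanocyte markers summed to 4.15, 3.99 and 4.65 against 17.5, 19.0 and 18.5, nearly all from *Mitf*, with *Dct* and *Tyr* listed at 0. Endothelial markers summed to 2.85, 3.19 and 3.34 against 8.36, 8.37 and 7.49, mostly from *Pecam1*, with *Cdh5* and *Tie1* listed at 0. In DKSFM libraries these sums were under *Itga3*, *Itgb1*, *Itgb5* and *Itgb6* on average, but the melanocyte sum was near *Itgb6*, and all 3 sums were above *Itga2* and *Itgb8*. Leukocyte markers summed to 10.9, 11.3 and 12.6 against 13.8, 19.2 and 20.9, mostly from *Cd68*, a lysosomal gene, with *Cd3e* and *Itgax* listed at 0. Schwann cell markers summed to 69.6, 69.3 and 69.7 against 46.0, 44.6 and 44.4, mostly from *Mbp*, and in DKSFM libraries this sum was above *Itgb6*, *Itgav* and *Itga5*. The part of such cells in the integrin results was not tested. In bulk libraries fewer cells with a gene and less of its RNA per cell cannot be told apart.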

How the data were processed

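Strand-specific poly(A) RNA was read by the authors in single reads (85 bases). They used STAR with RefSeq annotation on mm10, then Salmon, and the authors' DESeq2 run set the lines against each other. The deposited signal, listed by symbol for 24982 genes, is the average depth of reads over each gene's bases, rounded to 1 decimal and not scaled to library size, and how it was computed is not given in the sources used here. Coverage is not a count, so limma took the place of a count model. Because rounding to 0.1 limits low values, genes listed at 0 are named as such.

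Groups and replicate numbers came from the labels. Each library was divided by its total coverage times a factor from unweighted trimmed means of M values (30% of M and 5% of A trimmed; factors 0.991 to 1.01), relative to the mean of these products over libraries, which gave divisors of 0.840 to 1.30. Genes with at least 0.5 in at least 3 libraries were kept. Linear models on log2(normalized coverage + 0.1) with an intensity trend and no covariate were fitted to all 6 libraries, with Benjamini-Hochberg adjustment over all tested genes. The fit ran in R 4.3.3 (limma 3.58.1) and was tested on simulated data, and plots were drawn in Python 3.11.15 (matplotlib 3.10.9). No libraries held identical values. Positions and transcripts came from GENCODE M21 on GRCm38, matched for 24490 genes by symbol and 59 by synonym, with 433 unmatched. Approximate reads per step took the longest transcript.

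The members and lists were chosen with earlier results of these data known. Genes named are the members, all other integrin subunits and, in each further list, up to 3 per direction with the largest change past both thresholds and averaging 10 or more in either line, with the most covered gene. Genes listed at 0 and markers are named besides, and some genes under these rules are not reported here. *Tgfb2*, *Vcam1*, *Thbs1*, *Ctgf*, *Cyr61*, *Spp1*, *Col4a2*, *Tnc*, *Mfge8* and *Lama5* were named after their values were seen. Alternatives were other scalings (relative log expression, library totals, quantile), the filter dropped or asked of every library, a pseudocount of 0.5 or 1, no trend, a replicate block, an adjusted p of 0.05, limma treat, local centring on genes within 10 Mb, each library left out, and the libraries named combined.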

Additional observations from a re-analysis of the deposited data

How the results depend on the processing

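Of the members, *Itga2*, *Itga3*, *Itga5*, *Itgav*, *Itgb1* and *Itgb6* kept their direction and call, and *Itgb5* was not called, under the 18 alternatives fitted gene by gene, which leave out treat. The log2 fold change ranged from -2.03 to -1.83 for *Itga3*, from -2.01 to -1.39 for *Itga2*, from -2.00 to -1.80 for *Itgb6*, from -1.46 to -0.88 for *Itgb1*, from -0.57 to -0.38 for *Itgav* and from 0.55 to 0.68 for *Itga5*, and from -0.06 to 0.08 for *Itgb5* (limma adjusted p 0.0701 to 0.917). *Itgb8* was called wherever tested, but a filter on every library removed it, which left 1 member higher and 0 higher by 2-fold. With a pseudocount of 1, 0 members were higher by 2-fold. Among all tested genes, 1032 were higher by 2-fold with the filter on every library, which tests fewer genes, and 1069 higher and 785 lower with treat, a stricter test, under which the members lower by 2-fold numbered 4 and those higher 1. Local centring reversed *Actn4* to -0.16, no longer called, and *Cd63* to -0.21, then called lower, and the cause was not tested. At an adjusted p of 0.05 *Cd63* was called higher.

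Replicate numbers did not pair the libraries (same-number correlations of -0.0086, 0.023 and -0.020). Under the replicate block *Itga6* kept its log2 fold change of 0.14 but not its call (limma adjusted p = 0.0114). No other tested integrin gene or gene named by rule from the lists changed its call under that block. *Tgfb2*, *Vcam1*, *Thbs1*, *Ctgf*, *Cyr61*, *Spp1*, *Col4a2*, *Tnc*, *Mfge8*, *Lama5* and the cell type markers other than *Itgb4* were not followed through the alternatives. With the libraries named combined, the lone KSFM-Ca2+ library was taken to vary like the others. *Itga9* and *Itgb3* lie under the rounding step, so a low level was not detectable here.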
